A study of Mus musculus with 8 samples.

Results

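Integrin and laminin subunit genes were examined for open chromatin in mouse granulosa cells, which line the ovarian follicle and support the oocyte. The genes were chosen by symbol from the protein-coding genes of a RefSeq table of assembly GRCm38.p6: Itga or Itgb followed by a number or letter, and Lama, Lamb or Lamc followed by a number. This gave 37 of 21631 genes on chromosomes 1 to 19 and X, namely 26 integrin genes (18 alpha and 8 beta subunits) and 11 laminin genes. The integrin-like genes Itgbl1 and Itgb2l and the binding protein genes of the Itgb1bp and Itgb3bp type were left out. ATAC-seq, which marks open chromatin by where the transposase Tn5 can cut, had been run on 8 libraries in 2 experiments of 4. All mice were 21 days old and received 5 IU of eCG, a gonadotropin that drives follicle growth. In the LH experiment, wild-type CBA x C57BL/6 F1 mice gave 2 libraries titled PMSG, taken 46 h after eCG, and 2 titled hCG, taken 6 h after 5 IU of hCG, used in place of the natural surge of luteinising hormone (LH). In the PR experiment, 2 wild-type (WT) and 2 PR knockout (KO) libraries came from the strain C.129S7(B6)-Pgrtm1Bwo/OmcJ and differ in Pgr, the gene of the progesterone receptor. The design text places all 4 after hCG, and they carry a 6 h time tag beside a pre-ovulatory source name. Each library pooled cells of 2 to 3 mice, so single animals cannot be told apart. In the LH experiment titles and time tags disagree (0 h on libraries titled hCG, 6 h on those titled PMSG), so directions follow the titles and source names.

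Integrins are receptors made of an alpha and a beta chain that bind the extracellular matrix or other cells and link them to the cytoskeleton. Laminins are matrix proteins made of an alpha, a beta and a gamma chain, and are main components of basement membranes. In the follicle a basement membrane separates the granulosa cells from the theca, and granulosa cells attach to it until it is breached at ovulation.

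The deposited lists hold called peaks without read numbers, so a gene was described by the peaks within its body or 10 kb either side. Overlapping peaks of the 4 libraries of an experiment were merged into regions, which a library "held" where any of its peaks fell in them. Group-only regions (for example hCG-only or WT-only) are those with peaks in both replicates of the named group and in no replicate of its counterpart. Fold values are the authors' enrichment of a summit over the background of its own library, and describe peaks within a list. Regions called at a gene by this distance need not act on it. In pooled cells, a site open in fewer cells and a site less open in each cell cannot be told apart.

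The sequences below show the 250 bases before the start of 4 members, which differ in the presence of a peak over the RefSeq promoter window (250 bases before to 50 after the start). They are RefSeq sequences of GRCm38.p6, written 5′ to 3′ on the strand of the gene. Capitals mark matches to the 6 motifs searched on both strands. These were AP-1 (TGANTCA), RUNX (TGTGGT), NR5A (CAAGGTCA), the GATA motif read as AGATAA, a PGR-type element (ACANNNTGT) and FOX (TGTTTAC), and none of their matches overlap here. Itgb1, whose product is the beta chain shared by most integrins, had a peak over its window in all 8 libraries (chr8:128685404-128685653, plus strand). Itgax, which encodes an alpha chain of leukocyte integrins, also had one in all 8 (chr7:128129300-128129549, plus strand). Itgam, a leukocyte alpha gene nearby on the same chromosome, had one in none (chr7:128062390-128062639, plus strand). Itga11, the gene of a collagen-binding alpha chain, had one in both hCG libraries and in neither PMSG library (chr9:62677605-62677854, plus strand).
Itgb1: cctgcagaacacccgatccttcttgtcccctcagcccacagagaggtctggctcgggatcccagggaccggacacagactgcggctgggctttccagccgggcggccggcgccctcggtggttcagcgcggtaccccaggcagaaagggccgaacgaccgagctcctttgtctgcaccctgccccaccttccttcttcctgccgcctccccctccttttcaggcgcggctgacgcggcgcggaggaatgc
Itgax: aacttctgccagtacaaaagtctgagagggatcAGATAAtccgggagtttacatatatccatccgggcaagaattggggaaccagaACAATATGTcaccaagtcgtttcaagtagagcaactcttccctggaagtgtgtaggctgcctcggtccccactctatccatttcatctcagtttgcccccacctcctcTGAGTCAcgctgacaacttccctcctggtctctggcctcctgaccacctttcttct
Itgam: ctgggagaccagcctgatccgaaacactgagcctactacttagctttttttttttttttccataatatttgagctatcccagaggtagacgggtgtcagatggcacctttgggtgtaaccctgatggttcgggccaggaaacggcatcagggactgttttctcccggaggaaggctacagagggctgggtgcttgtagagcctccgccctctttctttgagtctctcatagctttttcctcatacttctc
Itga11: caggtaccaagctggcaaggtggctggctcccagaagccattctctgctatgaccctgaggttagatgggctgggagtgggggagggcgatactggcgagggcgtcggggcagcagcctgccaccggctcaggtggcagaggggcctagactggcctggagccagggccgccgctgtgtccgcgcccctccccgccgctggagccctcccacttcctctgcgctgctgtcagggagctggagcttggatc

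The Itgax stretch held 1 match each to the GATA, PGR-type and AP-1 motifs, and the other 3 stretches held no match to any of the 6. Among all 21045 promoter windows of protein-coding genes, the 250 bases before the start held GATA in 8.84%, the PGR-type element in 5.24% and AP-1 in 6.17%. RUNX stood in 12.2% of all windows and in 2 of the 26 windows of members (Itga4 and an inner start of Itga3), and NR5A (1.15% of all windows) and FOX (2.64%) in none of the 26. A match is a description of these letters and not evidence of binding.

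The series as a whole set the limits of what could be compared. Lists of the LH experiment held 57992 to 65567 intervals per library and covered 29.8 to 39.0 Mb. Those of the PR experiment held 55654 to 84313 and covered 31.7 to 43.9 Mb, with the 2 WT lists (80137 and 84313) longer than the 2 KO lists (58851 and 55654). Near the lower-coordinate end of Pgr lay 1 interval in each of the 6 libraries not labelled KO, and 2 intervals with a gap of 272 and 394 bp in the 2 KO libraries. A peak within 1 kb of a gene end was present in all 8 libraries for 6 of 8 granulosa marker genes (Fshr, Foxl2, Amh, Amhr2, Inha and Inhba), in no library for Cyp19a1 and in WT replicate 1 alone for Nr5a2. Of the 6 leukocyte markers, Ptprc, Adgre1 and Csf1r had none in any library, and 0 to 2 of the 6 had one per library (1 and 1 in hCG, 1 and 0 in PMSG, 1 and 2 in WT, 1 and 0 in KO). The platelet lineage markers Gp9 and Pf4 had none in any library. Of the endothelial markers, Cdh5 and Kdr had one in all 8, and Pecam1 and Tek in none. Of the oocyte markers, Gdf9 had one in all 8, Zp3 in 2, and Bmp15 and Ddx4 in none. Of the theca markers, Cyp17a1 had one in 2 libraries and Insl3 in none.

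Most integrin and laminin genes had an open end in every library. A peak within 1 kb of either end was present in all 8 libraries for 25 of 37 genes (67.6%), against 59.9% of all protein-coding genes. It was present in some libraries for 4 genes and in none for 8 (21.6%, against 33.2% of all genes). The genes with an open end in all 8 included those of all 3 laminin-binding alpha chains (Itga3, Itga6, Itga7), of the common beta chain Itgb1, and of 9 of 11 laminin chains. The authors' fold at the end of Itga6, whose product pairs with the products of Itgb1 or Itgb4 to bind laminin, was 12.6 and 12.9 in hCG, 14.6 and 15.1 in PMSG, 13.8 and 14.2 in WT and 13.9 and 12.3 in KO. At Lama3, the gene of an alpha chain of epithelial laminins, it was 16.3 and 15.7 in hCG, 16.7 and 17.9 in PMSG, 19.4 and 20.4 in WT and 18.1 and 15.3 in KO. At Lamc1, the gene of the gamma chain found in most laminins, it was 9.79 and 9.17 in hCG, 12.6 and 12.0 in PMSG, 11.8 and 10.8 in WT and 10.05 and 9.49 in KO. No library lacked a peak at these 3 ends.

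**Figure D1:**
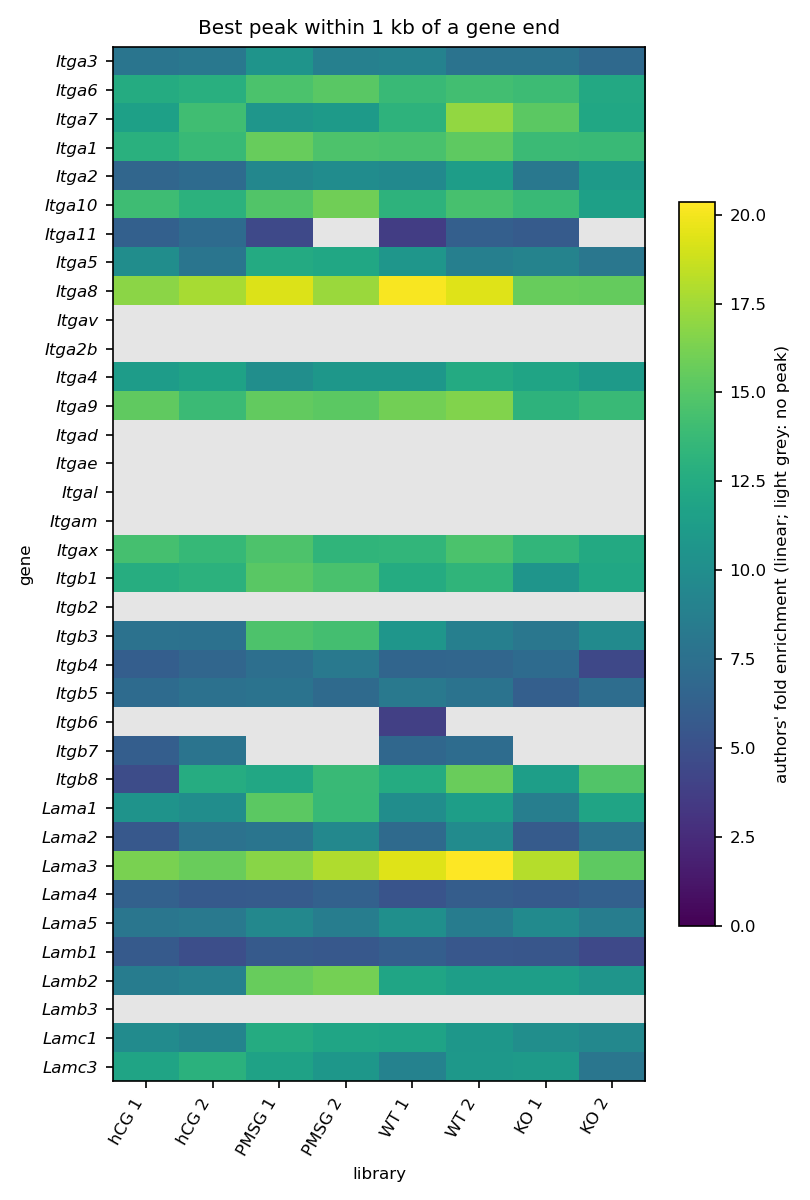
Authors' fold enrichment (linear, relative to the background of each library) of the best peak within 1 kb of either gene end, for 36 of the 37 genes (vertical axis) in the 8 libraries (horizontal axis). Light grey cells have no peak: 25 genes are filled in all 8 libraries and 8 in none.

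The 8 genes without a peak at either end were Itgav, Itga2b, Itgad, Itgae, Itgal, Itgam, Itgb2 and Lamb3. Of these, 5 encode chains of leukocyte integrins (Itgad, Itgae, Itgal, Itgam and the common leukocyte chain Itgb2) and Itga2b encodes the alpha chain of the platelet fibrinogen receptor. Itgax differed from the other leukocyte alpha genes in this, with fold values of 12.3 to 14.7 at its start over the 8 libraries. Itgav, which encodes an alpha chain that binds the RGD sequence of matrix proteins, is counted among the 8 only because its RefSeq promoter window (83724147 to 83724446 on chromosome 2) lies more than 1 kb inside the gene body of the table. All 8 libraries had a peak over that window, with a fold of 7.80 and 7.61 in hCG, 10.6 and 9.97 in PMSG, 9.96 and 10.3 in WT and 8.08 and 10.5 in KO. Conversely, the peak counted for Itga10, a collagen-binding alpha gene, lay at the end away from its start, and its promoter window had a peak in WT replicate 1 alone.

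Promoter windows were in the table for 23 of the 37 genes, with 26 windows. Those of 14 windows had a peak in all 8 libraries (53.8%, against 56% of all windows) and those of 9 in none (34.6%, against 38.2%). The 9 were the windows of Itga2b, Itgam and Itgb7, an inner window each of Itga3 and Itga9, and both windows each of Itgb6 and Lamb3. The GC content of the 250 bases before the start had a median of 62.2% (43.6 to 72.4) over the 14 windows and of 54% (38 to 61.2) over the 9. Windows of 3 genes were held by some libraries. Lama2 lacked a peak in hCG replicate 1 alone, Itga10 had one in WT replicate 1 alone, and Itga11 had one in hCG (6.24 and 7.12), WT replicate 2 (6.15) and KO replicate 1 (5.87).

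A gene end that was open in some libraries only followed the groups at Itgb7. The higher-coordinate end of Itgb7, the gene of a beta chain of lymphocyte integrins, had a fold of 6.06 and 7.80 in hCG and 6.82 and 7.18 in WT, and no peak in PMSG or KO. This pattern was shown by 47 genes (0.217%). The peak of Itgb7 spanned 102232878 to 102233155 on chromosome 15, and did not reach the promoter window in the table (102231886 to 102232185, minus strand). The pattern was picked out here after the values were seen.

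In number of regions the genes differed widely. Merging all 8 libraries gave 322 regions at the 37 genes, of which 134 were held by all 8, and no region was shared by a pair of members. The density was a median of 0.955 regions per 10 kb (0.648 over all protein-coding genes). It was lowest at Lama2, with 6 regions over a gene of 636 kb, Itga8 (2 regions, 195 kb) and Itga4 (1 region, 77.7 kb). It was highest at Itgb4 (10 regions, 33.7 kb), Itgb5 (23 regions, 120 kb) and Itgb3 (13 regions, 62.5 kb). Regions held by all 8 numbered 14 at Itgb5 and 2 at Itgb3.

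The LH experiment compared accessibility before hCG with that 6 h after it. At integrin and laminin genes, more regions were present only after hCG than only before it. Both hCG lists (65567 and 62327 intervals) were longer than both PMSG lists (57992 and 58780). List length and group therefore cannot be told apart with all peaks. Of 276 regions, 143 were held by all 4 libraries, 57 were hCG-only (20.7%, Wilson 95% interval 16.3 to 25.8) and 25 were PMSG-only (9.06%, 6.21 to 13.0). The background was 17.7% hCG-only and 10.4% PMSG-only over all 81943 regions, and 16.7% and 8.9% over regions within 10 kb of any protein-coding gene. All 4 background shares lie within the members' intervals, which cover counting error only. Where a library held a region only if its peaks covered at least 50% of it, 87 regions were hCG-only (31.5%, 26.3 to 37.2, against 23.4% over all regions and 22.4% near any gene) and 27 PMSG-only (9.78%, 6.81 to 13.9, against 11.2% and 9.6%). In that setting both hCG-only background shares lie below the members' interval, which takes regions of a gene as independent. The rule depends on the bases covered, and the hCG lists covered 39.0 and 38.2 Mb, the PMSG lists 29.8 and 29.9 Mb. Covered length and group therefore cannot be told apart in that setting. The 143 regions held by all 4 were 51.8% of the members' regions, against 49.9% and 53.3%. The genes with the most hCG-only regions were Itgb3 and Lama3 (5 each), and Itga9, Itgb5, Itgb6 and Lama1 had 4 each. Those with the most PMSG-only regions were Itga9 and Lama4 (3 each). Such counts rest on few regions: of 18 genes with 2 or more regions in 1 direction (with all peaks or with the same number of best peaks from every library), the difference between hCG-only and PMSG-only regions changed at 9 without hCG replicate 1, at 6 without hCG replicate 2 or PMSG replicate 1, and at 4 without PMSG replicate 2. At Itga9 it turned from 1 to -1 without hCG replicate 1.

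By gene, 25 of 37 had an hCG-only region (67.6%) and 15 a PMSG-only region (40.5%). Over all genes with a region nearby the shares were 38.4% and 23.7%. The members were not matched to these genes on length or number of regions. Members with hCG-only regions and no PMSG-only region numbered 13, the reverse 3, and 12 had both. With the same number of best peaks (57992) from every library, 46 of 268 regions were hCG-only (17.2%, 13.1 to 22.1) and 27 PMSG-only (10.1%, 7.02 to 14.3), against 15.3% and 13.3% over all regions and 14% and 12.2% near any gene. Those held by all 4 numbered 136 (50.7%, against 48.5% and 51.8%). Then 24 members had an hCG-only region (32.2% of all genes with a region nearby) and 16 a PMSG-only region (30.2% of those genes). All 46 of these hCG-only regions were hCG-only with all peaks too, whereas 3 of the 27 PMSG-only regions were held by all 4 libraries when all peaks were used.

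**Figure D2:**
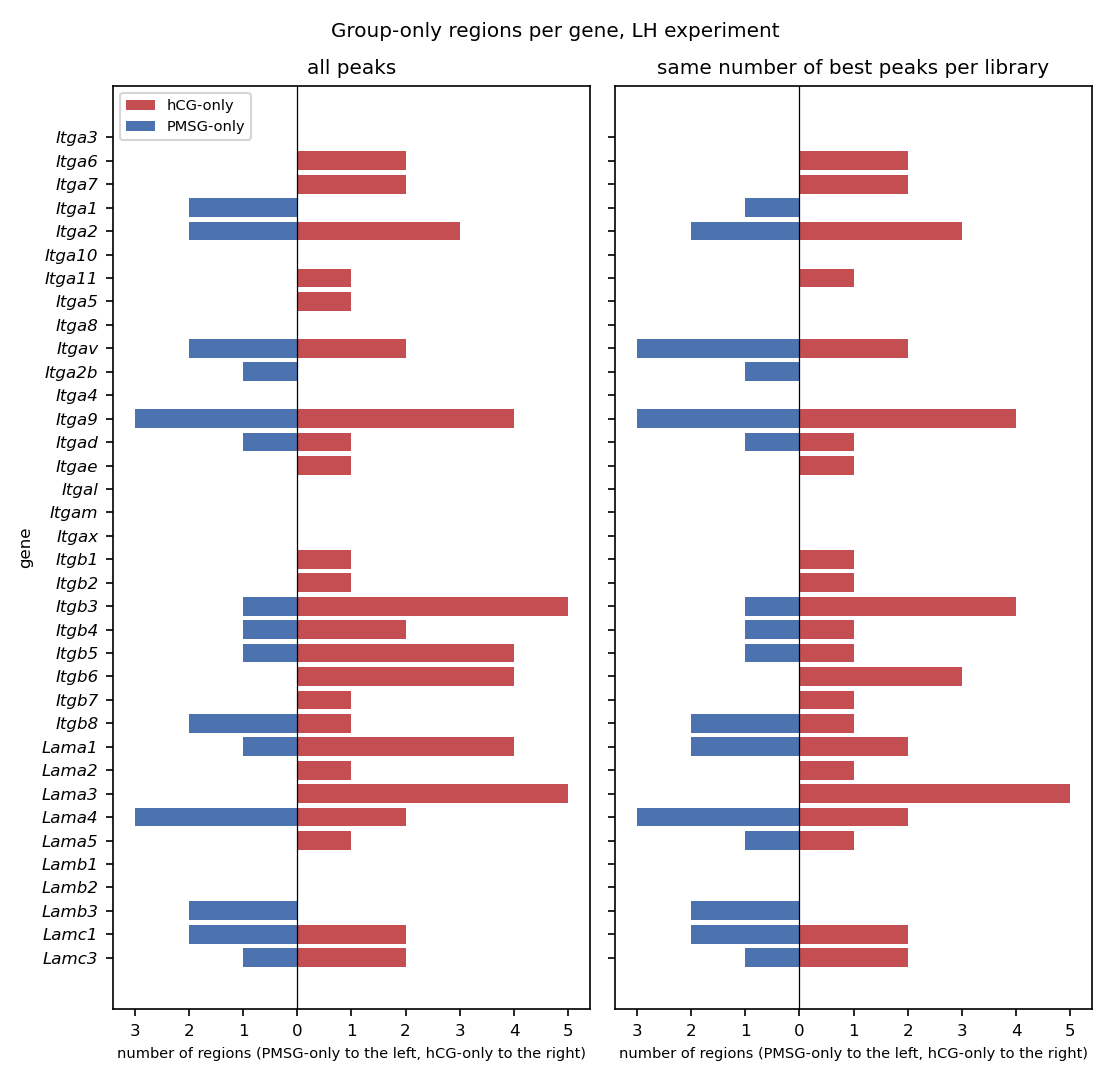
Number of hCG-only regions (red, to the right) and PMSG-only regions (blue, to the left) at 36 of the 37 genes, with all peaks (left panel) and with the same number of best peaks from every library (right panel). Lama3 keeps 5 hCG-only and 0 PMSG-only regions in both panels, while Itgb5 falls from 4 hCG-only regions to 1.

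Each library's share of the 276 regions was 83.3% and 79.3% in hCG and 67.0% and 70.7% in PMSG. Both hCG libraries lay above both PMSG libraries, and the means were 81.3% ± 2.82 and 68.8% ± 2.56 (SD, n = 2 each). The difference of 12.5 percentage points was larger than the spread between replicates, with an exact two-sided permutation p of 0.333, the smallest that 2 libraries against 2 allow. Over all regions of the experiment it was 7.84 points. With the same number of peaks it was 7.65 points at members (78.0% ± 1.58 against 70.3% ± 1.85, exact permutation p = 0.333) and 1.23 points over all regions.

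**Figure D3:**
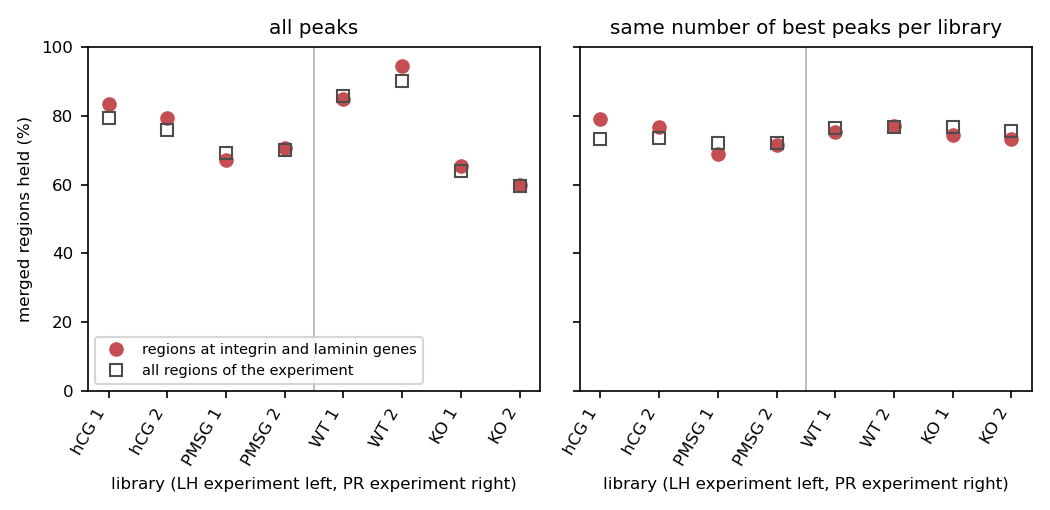
Percent of merged regions held by each of the 8 libraries at integrin and laminin genes (filled circles) and over all regions of the experiment (open squares), with all peaks (left panel) and the same number of best peaks per library (right panel). The hCG circles lie above the PMSG circles in both panels, and the WT circles, at 84.8% and 94.5% with all peaks, are on average 2.36 points above the KO circles in the right panel.

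Among the 18 regions of the 3 laminin-binding alpha genes, 4 were hCG-only (22.2%) and 0 PMSG-only, in both settings. Over all regions the hCG-only and PMSG-only shares were 17.7% and 10.4% (15.3% and 13.3% with equal list lengths). Itga6 held 9 and 9 regions in the hCG libraries and 7 and 7 in the PMSG libraries, and its 2 hCG-only regions lay inside the gene. Itga7, the laminin-binding chain best known from muscle, held 5 and 4 regions in hCG and 2 and 2 in PMSG. Itga3 had no group-only region. Of the 34 regions of the 4 collagen-binding alpha genes, 4 were hCG-only and 4 PMSG-only (11.8% each). Itga2 had 3 and 2 of these, Itga1, which lies near it on chromosome 13, had 0 and 2, Itga11 had the region at its start described above, and Itga10 had none.

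Of the 28 regions of the RGD-binding alpha genes, 3 were hCG-only and 3 PMSG-only, 10.7% each against 17.7% and 10.4% of all regions. These were 2 and 4 of 27 with equal list lengths (7.41% and 14.8%, against 15.3% and 13.3%). Itgav had 2 of each. Itga5, the alpha chain of the main fibronectin receptor, had 1 hCG-only region outside the gene that was not among the best peaks when list lengths were equal. Itga2b had 1 PMSG-only region in its flank, and Itga8 had none. Itga9, whose product binds tenascin and other matrix ligands, had 4 hCG-only and 3 PMSG-only regions among 22, and its libraries held 17 and 16 regions in hCG and 17 and 18 in PMSG, so the groups overlap. That order of 4 against 3 turned to a difference of -3 (hCG-only minus PMSG-only) with peaks of a −log10 q of 20 or more, and of -1 without hCG replicate 1. Itga4, the alpha chain of the receptor for VCAM-1 and fibronectin, had a single region, at its start, held by all 4.

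Over all 8 libraries the leukocyte genes had 0.396 (Itgam) to 1.34 (Itgb7) regions per 10 kb. The median was 0.955 over members and 0.648 over all protein-coding genes. The 5 leukocyte alpha genes and the leukocyte beta genes Itgb2 and Itgb7 together had 19 regions in the LH experiment. Of these 4 were hCG-only (21.1%, against 17.7% of all regions) and 1 PMSG-only (5.26%, against 10.4%). An hCG-only region inside Itgae, which encodes the alpha chain of an E-cadherin receptor of lymphocytes, ranked second among the hCG-only regions of all members. It spanned 73131125 to 73131529 on chromosome 11, with a fold of 12.8 and 15.8 in hCG, 13.4 and 19.3 in WT and 10.9 and 7.05 in KO. No peak was present at the ends of Itgae in any library, so the site was open in 6 libraries without an open gene end. Itgal, Itgam and Itgax had no group-only region in the LH experiment.

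The 8 beta genes held 73 regions, of which 19 were hCG-only and 5 PMSG-only (13 and 5 of 68 with equal list lengths). These were 26.0% and 6.85%, against 17.7% and 10.4% of all regions (19.1% and 7.35%, against 15.3% and 13.3%, with equal list lengths). Itgb6, whose product pairs with the alpha V chain and is known for activating latent TGF-beta in epithelia, had 4 hCG-only and 0 PMSG-only regions. The hCG libraries held 10 and 10 of its 12 regions and the PMSG libraries 4 and 5, without overlap. Itgb3, which encodes the other well-known partner of the alpha V chain, had 5 hCG-only regions and 1 PMSG-only region, and the libraries held 8 and 10 of 12 regions in hCG and 4 and 4 in PMSG. Itgb5, another partner of the alpha V chain, had 4 and 1 of 21 regions, but 3 of the 4 were weak (fold of 2.52 to 4.89) and were lost with equal list lengths. Itgb4, the partner of the alpha 6 chain in hemidesmosomes, had 2 and 1. Itgb8 had 1 and 2, and Itgb1 and Itgb2 had 1 hCG-only region each.

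**Figure D4:**
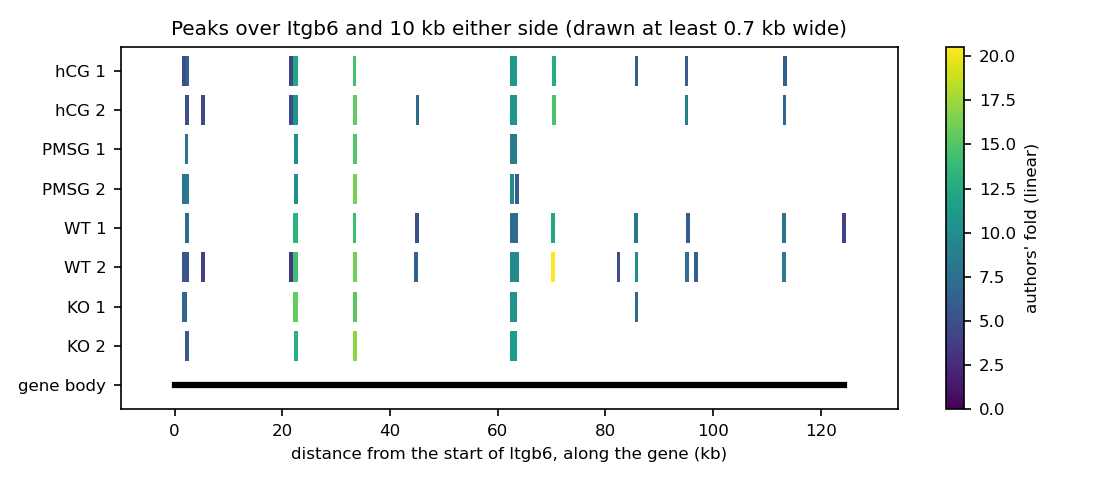
Peaks over Itgb6 and 10 kb either side in the 8 libraries (rows), by distance from the start of the gene along its length in kb, coloured by the authors' fold (linear). At 4 positions all 8 libraries have a peak, and at 3 positions the 2 hCG and 2 WT libraries have one and no PMSG or KO library does, among them the peak with the highest fold (20.5, WT replicate 2).

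Among the laminins, hCG-only and PMSG-only regions numbered 13 and 4 of 48 at the alpha genes (27.1% and 8.33%). They numbered 0 and 2 of 13 at the beta genes and 8 and 3 of 28 at the gamma genes (28.6% and 10.7%). In all they were 21 and 9 of 89 (17 and 11 of 87 with equal list lengths). These were 23.6% and 10.1%, against 17.7% and 10.4% of all regions (19.5% and 12.6%, against 15.3% and 13.3%, with equal list lengths). Lama3 had 5 hCG-only regions, all inside the gene, and no PMSG-only region. The hCG libraries held 15 and 14 of its 15 regions and the PMSG libraries 10 and 10. The strongest of these, at 12474252 to 12474591 on chromosome 18, was the best-ranked hCG-only region of all members, with a fold of 13.4 and 17.0 in hCG, 15.4 and 17.2 in WT and 13.2 and 7.78 in KO. Lama1, which encodes the alpha chain of the laminin of early embryos, had 4 and 1, of which 2 hCG-only regions had a fold under 4 and were lost with equal list lengths. Lama4, the gene of an alpha chain of vascular and mesenchymal laminins, had 2 hCG-only and 3 PMSG-only regions. Lama2 and Lama5 had 1 hCG-only region each.

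Lamb3, the gene of a beta chain of epithelial laminins, had 2 PMSG-only and 0 hCG-only regions, with the hCG libraries holding 2 and 2 of 4 regions and the PMSG libraries 4 and 4. With equal list lengths Lamb3 kept both PMSG-only regions. Lamc1 had 2 of each, and Lamc3 had 2 hCG-only regions and 1 PMSG-only region. Lamb1 and Lamb2, the beta chains of most other laminins, had no group-only region.

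Most regions of every class overlapped the gene body, and few group-only regions lay at a gene end. Of the 57 hCG-only regions, 51 overlapped the gene body (89.5%) and 3 had their midpoint within 1 kb of a member's end, among them those of Itga11 and Itgb7. Of the 25 PMSG-only regions, 21 overlapped the gene body (84%) and 0 lay at an end. Of the 143 held by all 4 libraries 113 (79.0%) overlapped the gene body and 27 (18.9%) lay at an end, and of the 51 other regions 42 (82.4%) and 1 did. Exons could not be told from introns, as the gene table gives none. Within the lists they ranked low: the median of the mean rank percentile by fold was 32.9 for hCG-only (37.7 over all hCG-only regions), 24.2 for PMSG-only (33.7 over all) and 57.2 for regions held by all 4 (60.1 over all). Another protein-coding gene was overlapped by 1 of the 57 hCG-only regions (at Itgav, over Fam171b) and 0 of the 25 PMSG-only regions.

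The other best-ranked hCG-only regions were at Itgb6 (60652252 to 60652532 on chromosome 2, fold of 12.8 and 14.7), Itgb5 (33903743 to 33904107 on chromosome 16, 12.8 and 14.5) and Itgb3 (104640942 to 104641215 on chromosome 11, 12.0 and 13.2). Those at Itgb5 and Itgb3 were held by all 4 PR libraries, and that at Itgb6 by both WT libraries and neither KO library. The best-ranked PMSG-only regions were at Lama4 (39021733 to 39022222 on chromosome 10, fold of 12.7 and 11.5, and 39066958 to 39067251, 11.5 and 10.9). The next were at Itga9 (118647593 to 118647895 on chromosome 9, 10.8 and 10.5), in the flank of Itgb8 (119160917 to 119161222 on chromosome 12, 9.03 and 11.2) and in Lamb3 (193330272 to 193330563 on chromosome 1, 8.90 and 10.1). All 5 were also held by WT replicate 1, and KO replicate 1 held none of them.

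The PR experiment compared WT with KO cells after hCG. At integrin and laminin genes every group-only region was present in WT and absent in KO when all peaks were used. Of 310 regions, 167 were held by all 4 libraries, 45 were WT-only (14.5%, Wilson 95% interval 11.0 to 18.9) and 0 were KO-only (upper bound 1.22%). Leaving out 1 library moved the WT-only count to 82 (without WT replicate 1), 71 (without KO replicate 1) or 55 (without either of the others), and the KO-only count to 3 without WT replicate 2 and 2 without KO replicate 2. Fewer libraries then have to agree, so these counts can rise by the rule alone. Over all 91502 regions 12.1% were WT-only and 0.0842% KO-only, and near any gene 11.9% and 0.07%. With peaks over at least 50% of a region, 46 were WT-only (14.8%, against 12.5% over all regions) and 1 was KO-only (0.323%, against 0.346%). Those held by all 4 were 53.9%, against 53.3% and 55.5%. Both WT lists were longer than both KO lists, so list length and genotype cannot be told apart with all peaks. The 45 regions lay at 23 of 37 genes (62.2%, against 34% of all genes with a region nearby), and KO-only regions at 0 (0.322% of those genes). Lamc3 and Itgb6 had 4 each, and Itga9, Itgb5 and Lama5 had 3 each. Leaving out 1 library changed the difference between WT-only and KO-only regions at 10 of 15 such genes (without WT replicate 1), 8 (without KO replicate 1) or 5 (without either of the others), and turned it at none. At Itgb6 it rose from 4 to 8 without WT replicate 1, and at Itga9 from 3 to 9 without KO replicate 1.

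With the same number of best peaks (55654) from every library, both directions appeared. Of 254 regions, 18 were WT-only (7.09%, 4.53 to 10.9, against 4.25% over all regions and 3.95% near any gene) and 12 were KO-only (4.72%, 2.72 to 8.07, against 4.16% and 4.4%). Those held by all 4 numbered 133 (52.4%, against 56.2% and 58.1%). All 18 of these WT-only regions were WT-only with all peaks as well. With all peaks, all 4 libraries held 11 of the 12 KO-only regions, and WT replicate 2 and both KO libraries held the other, so each of the 12 had a WT peak below the number taken. In this setting 13 members had a WT-only region (12.2% of all genes with a region nearby) and 8 a KO-only region (13.9% of those genes). Itgb6 had 3 WT-only regions, Itga7 and Lamc1 had 2 each, and Itgb5 had 3 KO-only regions.

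Each library's share of the 310 regions was 84.8% and 94.5% in WT and 65.5% and 60% in KO. The difference of 26.9 percentage points (89.7% ± 6.84 against 62.7% ± 3.88, SD, n = 2 each, exact permutation p = 0.333) was close in size to the 26.1 points over all regions. With the same number of peaks it was 2.36 points (76.2% ± 1.39 against 73.8% ± 0.835, exact permutation p = 0.333), against 0.429 points over all regions. It turned to -0.633 points (exact permutation p = 1) when the same number was taken by −log10 q in place of fold, and then 7 regions were WT-only and 8 KO-only. Shares over all regions were not counted with that ranking.

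**Figure D5:**
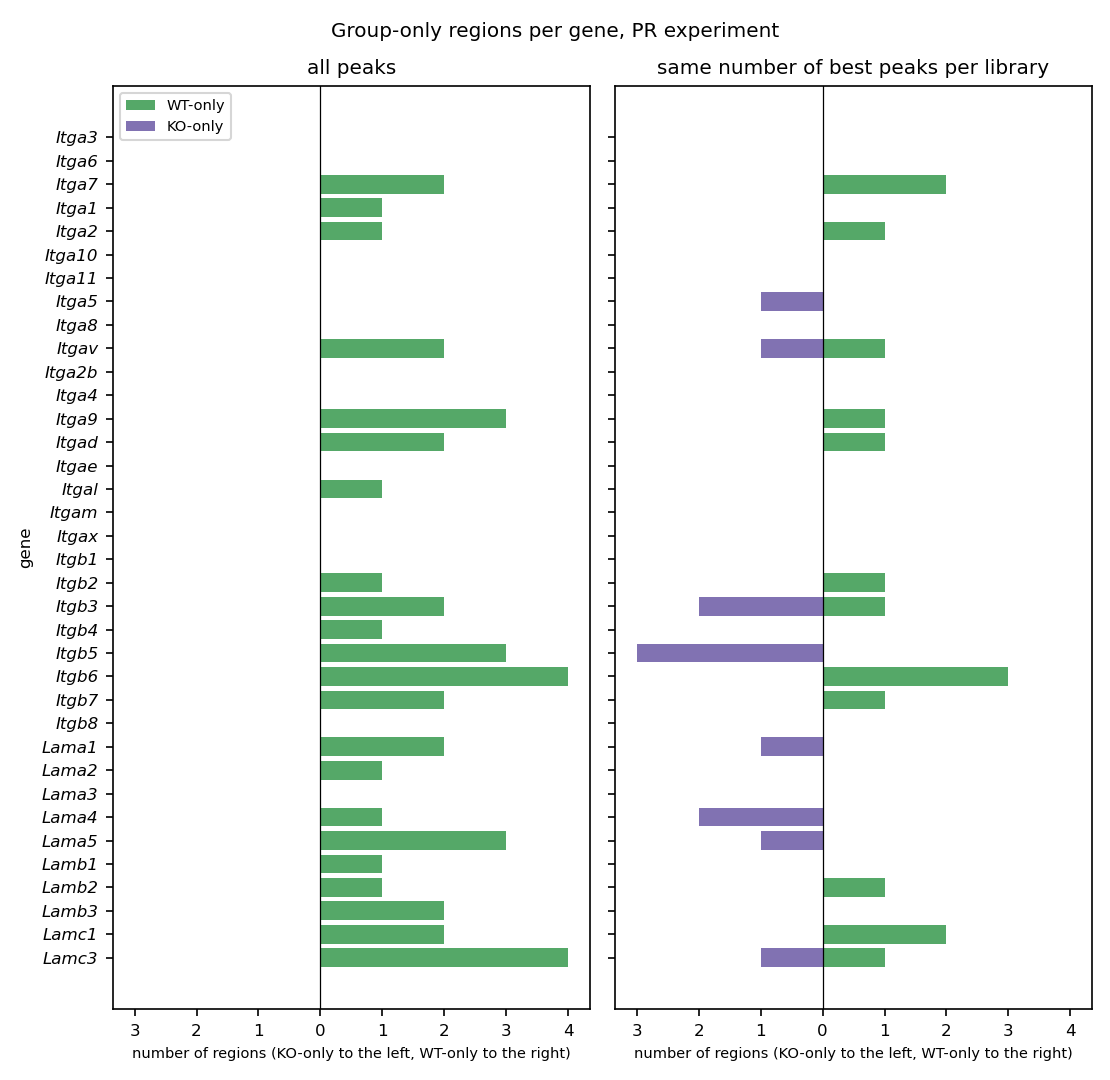
Number of WT-only regions (green, to the right) and KO-only regions (purple, to the left) at 36 of the 37 genes, with all peaks (left panel) and with the same number of best peaks from every library (right panel). The left panel has no KO-only region, and the right panel has 12, of which 3 are at Itgb5.

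The laminin-binding alpha genes had 2 WT-only regions of 18 (11.1%, against 12.1% of all regions), both at Itga7. Both were present with equal list lengths (2 of 16, 12.5%, against 4.25%). The better ranked of them was no longer WT-only when peaks had to cover at least 50% of a region. The WT libraries held 4 and 5 of 5 regions of Itga7 and the KO libraries 2 and 2. Of the collagen-binding genes, Itga1 and Itga2 had 1 WT-only region each (2 of 43 regions, 4.65%). Of the RGD-binding genes, Itgav had 2 (of 27 regions at these genes, 7.41%). With equal list lengths the direction of the RGD-binding genes turned to 1 WT-only region (at Itgav) and 2 KO-only regions (at Itgav and Itga5). Itga9 had 3 among 31 regions, of which 1 was present with equal list lengths, and its difference (WT-only minus KO-only) turned to -2 when the same number of peaks was taken by −log10 q. Itgad, which encodes a leukocyte alpha chain, had 2 of 3 regions. The WT libraries held 3 and 3 of these regions and the KO libraries 1 and 1, and 1 region was WT-only with equal list lengths.

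The beta genes had 13 WT-only regions of 75 (17.3%, against 12.1% of all regions) and 0 KO-only. With equal list lengths they had 6 WT-only (10%, against 4.25%) and 5 KO-only regions of 60 (8.33%, against 4.16%). Of the 13, 4 were at Itgb6, where the WT libraries held 10 and 13 of 14 regions and the KO libraries 5 and 4. The best-ranked WT-only region of all members lay there, at 60652184 to 60652617 on chromosome 2, 54.1 kb from the nearer gene end. Its fold was 12.2 and 20.5 in WT, and no peak was present in KO. Itgb3 had 2 WT-only regions with all peaks, and 1 WT-only and 2 KO-only with equal list lengths. Itgb5 had 3 weak WT-only regions (fold of 2.84 to 3.80), and with equal list lengths 0 WT-only and 3 KO-only, so its direction turned with the list lengths. Itgb2 and Itgb4 had 1 each, and Itgb7 had 2, of which the stronger lay at its end. Itgb1 and Itgb8 had none.

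The laminin genes had 20 WT-only regions of 100 (20%, against 12.1% of all regions) and 0 KO-only (0.0842% of all regions). With equal list lengths they had 6 WT-only (7.59%, against 4.25%) and 5 KO-only of 79 (6.33%, against 4.16%). In that setting the laminin gamma genes had 5 WT-only and 1 KO-only region of 24. The alpha genes then had 0 and 4 of 45 and the beta genes 1 and 0 of 10. With all peaks the laminin gamma genes had 9 WT-only regions of 29 (31.0%) and the alpha genes 7 of 57 (12.3%). The beta genes had 4 of 14 (28.6%), of which 2 were at Lamb3. Lamc1 had 2, the better ranked at 153282263 to 153283209 on chromosome 1 with a fold of 8.79 and 11.3. Lamc3 had 4, and 1 WT-only and 1 KO-only with equal list lengths. Lama5 had 3 and Lama1 2, and none of these 5 was WT-only with equal list lengths, where each of these genes had 1 KO-only region instead. Lama4 had 1 WT-only region of 11 with all peaks, and 0 WT-only and 2 KO-only with equal list lengths. Lamb2 had 1, at 108469541 to 108470155 on chromosome 9, on the edge of the 10 kb flank, with a fold of 10.1 and 10.2. Lama3 had no WT-only region among 14, and the WT libraries held 13 and 14 of them and the KO libraries 14 and 13.

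Regions that changed in the LH experiment were then followed into the PR experiment, over regions merged from all 8 libraries. Of the 57 hCG-only regions at members, WT replicates 1 and 2 held 44 and 55, and KO replicates 1 and 2 held 30 and 22. Over all hCG-only regions the shares were 79.7% and 91.2% in WT and 62.9% and 44.3% in KO, against 77.2%, 96.5%, 52.6% and 38.6% at members. Of the 25 PMSG-only regions, WT replicates 1 and 2 held 21 and 14, and KO replicates 1 and 2 held 8 and 9 (84%, 56%, 32% and 36%, against 76.2%, 45.6%, 20.8% and 34.1% of all PMSG-only regions). Both sets were thus held more by WT than by KO libraries, whose lists were shorter.

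Of the 57 hCG-only regions, 13 were also WT-only (22.8%, against 16.6% of all hCG-only regions), and of the 25 PMSG-only regions 6 were (24%, against 13.8%). With equal list lengths 9 of 46 hCG-only regions were also WT-only (19.6%, against 7.52% of all hCG-only regions) and 1 of 27 PMSG-only regions (3.7%, against 2.28%), namely that in Itga9. No hCG-only or PMSG-only region at members was KO-only with all peaks, and with equal list lengths 1 of each was (an hCG-only region of Itgb3 and a PMSG-only region of Lama5). Over all hCG-only and PMSG-only regions the KO-only shares were 0.0352% and 0.168% with all peaks, and 2.42% and 6.59% with equal list lengths, against 2.17% and 3.7% at members. With all peaks the 13 included regions at Itgb6 (3 regions), Itgb5 (2 regions), and Lamc1, Itga7, Itgb3, Itga2, Itgb7 and Lama5 (1 each). At Itgb6 these 3 regions had a fold in hCG replicates 1 and 2 of 12.8 and 14.7, 6.20 and 6.78, and 5.95 and 8.65. In WT replicates 1 and 2 they had 12.2 and 20.5, 7.75 and 8.56, and 6.22 and 7.74. No PMSG or KO library held any of the 3, whereas 4 other regions of Itgb6 were held by all 8. The region at Itga7 (128968235 to 128968548 on chromosome 10, 10.1 kb from the gene's end) had 8.86 and 10.5 in hCG and 7.85 and 12.6 in WT. The 6 that were PMSG-only and WT-only lay at Lamb3 (2 regions) and at Lama1, Lamc3, Itgad and Itga9. In Lamb3 both PMSG-only regions were present in WT (fold of 6.02 and 4.91, and 4.99 and 5.36) and absent in hCG and KO with all peaks, and neither was WT-only with equal list lengths. Lama3 differed from Itgb6 here: of its 5 hCG-only regions, none was WT-only, and its best-ranked was held by both KO libraries.

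Further regions were group-only in both experiments. In Lama5, the region at 180216007 to 180216351 on chromosome 2 had a fold of 10.4 and 12.3 in hCG and 4.08 and 7.64 in WT. With equal list lengths it stayed hCG-only but was not WT-only. In Itgb3, 104663284 to 104663516 on chromosome 11 had 5.70 and 7.64 in hCG and 8.84 and 9.56 in WT, and was among the 5 best-ranked WT-only regions. In Itga2, which encodes a collagen-binding alpha chain, 114903968 to 114904291 on chromosome 13 had 8.99 and 10.9 in hCG and 6.51 and 9.27 in WT. The Lamc1 region named above had 7.50 and 8.48 in hCG. Both regions of Itgb5 (33889105 to 33889385 and 33937670 to 33937920 on chromosome 16, fold of 2.52 to 4.89 in hCG) were no longer group-only with equal list lengths. Of the regions that were PMSG-only and WT-only, that in Itga9 (118647494 to 118647895 on chromosome 9) had the highest fold, 10.8 and 10.5 in PMSG and 6.01 and 8.73 in WT. Those in Lama1 (67776738 to 67777026 on chromosome 17), Lamc3 (31888928 to 31889310 on chromosome 2) and Itgad (128190349 to 128190698 on chromosome 7) had folds of 5.26 to 7.01 in PMSG and 3.92 to 7.48 in WT, and were not WT-only with equal list lengths.

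A list of 26 other genes of cell-matrix adhesion (ligands such as Fn1, Hspg2 and Tnc, the non-integrin laminin receptors Dag1 and Bcam, integrin-linked proteins such as Ptk2, Tln1 and Vcl, and tetraspanins) was counted in the same way. In the LH experiment 30 of their 178 regions were hCG-only (16.9%, against 17.7% of all regions) and 11 PMSG-only (6.18%, against 10.4%). With equal list lengths 24 of 167 were hCG-only (14.4%, against 15.3%) and 22 PMSG-only (13.2%, against 13.3%). In the PR experiment 29 of 195 were WT-only (14.9%, against 12.1%) and 0 KO-only (0.0842% of all regions). With equal list lengths 3 of 148 were WT-only (2.03%, against 4.25%) and 16 KO-only (10.8%, against 4.16%). Ptk2, which encodes focal adhesion kinase, had 4 hCG-only and 3 PMSG-only regions, and Dag1, the gene of dystroglycan, had 2 hCG-only regions and no PMSG-only region.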

How the data were processed

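ATAC-seq peak lists of 8 libraries were used, 1 list per library, in 2 experiments with 2 libraries per group. Libraries were grouped by title. Per the submitters' processing notes, Bowtie2 and MACS2 were used on build mm10; versions, filters and the treatment of the Tn5 shift are not given in the sources used here. Peak names mention filtering and marked duplicates in the deposited PR lists alone. Whether the authors treated both experiments alike is not known. The deposited lists have 10 columns and no header. Column 7 is the authors' fold enrichment (a linear ratio over the background of the library), and columns 8 and 9 are −log10 of a p-value and a q-value in the deposited lists, the lowest −log10 q being 10. A score (column 5, deposited as 10 times column 9) stayed unused.

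Summits sharing an interval were counted as 1 with their best fold. Intervals on chromosomes 1 to 19 and X overlapping by 1 bp or more were merged within an experiment (and once over all 8 libraries). A region belonged to a gene if it overlapped the body or 10 kb either side. The RefSeq table and promoter sequences are of GRCm38.p6, the same assembly as mm10. Lists of equal length took the best intervals by fold, as many as the shortest list of the experiment held. No region was tested singly, and shares of regions held per library were compared by an exact permutation test. Replicates are separate pools of animals per the labels' design text. Read depth is unknown, since the lists hold no counts, so a missing peak can reflect sensitivity. The members, gene lists and settings were chosen with earlier results of these data known. Given in full were members with 2 or more group-only regions in 1 direction, the 5 best-ranked regions of each group-only set, regions group-only in both experiments, and members without a peak at either end. Values of 1 member are not reported here singly, though totals over members include it. The functions were tested on simulated lists. Python 3.11.15, pandas 2.3.3, numpy 2.4.6 and scipy 1.17.1 were used.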

Additional observations from a re-analysis of the deposited data

How the results depend on the processing

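The excess of hCG-only over PMSG-only regions at members kept its direction under every alternative tried. Without each library in turn the hCG-only count ranged from 60 to 67 and the PMSG-only count from 27 to 33. Counts without a library can rise by the rule alone, as fewer libraries have to agree. Requiring peaks to cover at least 50% of a region, a rule that depends on the bases covered, raised the hCG-only count from 57 to 87. It left 1 KO-only region, and of 15 best-ranked regions the 1 at Itga7 was no longer group-only. In the PR experiment the same number of best peaks by fold gave 18 WT-only and 12 KO-only regions, and by −log10 q (chosen after seeing the data) 7 and 8, with a WT minus KO difference in percent held of -0.633. Without each library in turn the WT-only count ranged from 55 to 82 (82 without WT replicate 1, 71 without KO replicate 1) and the KO-only count from 0 to 3. Of single genes, Itga9 turned to -3 (hCG-only minus PMSG-only) with a −log10 q of 20 or more and by −log10 q ranking, and to -1 without hCG replicate 1. With the same number of peaks by fold, WT-only minus KO-only turned to -1 at Itgb3, Lama1 and Lama5, to -2 at Lama4 and to -3 at Itgb5, and by −log10 q to -2 at Itga9 and -1 at Lama4. Taking differences within the same replicate number (replicate block) left the differences at 12.5 and 26.9 points, with exact permutation p = 0.5, the smallest for 2 pairs. Adding Itgbl1, or Itgb2l (chosen after seeing the data), changed no count by more than 1.5 times. With the same number of best peaks by fold (for this overlap chosen after seeing the data) the hCG-only regions that were also WT-only fell from 13 to 9 and the PMSG-only ones from 6 to 1. The cause of these changes was not tested. Depth limits all absences, as the lists hold no reads.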
